A study of Mus musculus with 8 samples.

Results

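The 4 JAK kinases Jak1, Jak2, Jak3 and Tyk2 and the 5 STAT factors Stat3, Stat4, Stat5a, Stat5b and Stat6 were followed by RNA seq in T helper 17 (Th17) cells that expressed either of 2 forms of ROR-γt. These 9 genes were taken by symbol from the 22829 genes of the deposited table, and all 9 were found and had a mean far above 10 normalized counts. The cells were splenic CD4+ T cells of ROR-γt-/- mice, transduced with lentivirus and differentiated under Th17-inducing conditions. In 4 samples the virus carried WT-ROR-γt (the WT group), and in 4 samples it carried K187R-ROR-γt, a form in which the lysine that receives SUMO is replaced by arginine (the K187R group). Both groups lacked their own ROR-γt and both received a V5-tagged form by transduction, so no sample had ROR-γt in its natural setting and no untransduced sample was measured. The submitted design speaks of WT and mutant mice, whereas the methods describe transduced cells. The age and sex of the mice are not given in the sources used here, and nothing says that the replicates came from separate animals or cultures, so p-values measure the spread between these samples, which may be technical.

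Cytokines such as IL-6, IL-23, IL-2 and IFN-γ bind receptor chains that have no kinase activity of their own and carry JAK kinases on their inner side. The activated kinases phosphorylate the receptor and the STAT factors docked there, and phosphorylated STATs pair and enter the nucleus to bind DNA. In Th17 cells STAT3, activated by IL-6, IL-21 and IL-23, is needed for Th17 differentiation, while STAT5, activated by IL-2, opposes it. Most of this control acts on phosphorylation, which RNA seq does not measure. The comparison asked whether the transcripts of the kinases and factors themselves differed between cells expressing WT-ROR-γt and K187R-ROR-γt.

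The promoters of the 9 genes were read from RefSeq (GRCm38.p6, 250 bases before to 50 bases after each start), which lists 12 promoters for them. The letters AGGTCA, the core of the element bound by ROR factors, were searched on both strands and lay in 5 promoters of 4 members, against 16.26% of all 32851 promoters and 18.13% of 27025 genes. The windows of 30 bases around these matches are shown because they hold this core, and the experiment changed the form of a ROR factor. Bases beside the core were not required to match, and nothing outside these short promoters was read. Each is written 5′ to 3′ along the gene's strand, and capitals mark the AGGTCA letters, which read TGACCT when the match is on the opposite strand.
Stat4 (chr1:51987067-51987096, plus strand): ctggcctcctgtAGGTCAtaggagcaccta
Stat6 (chr10:127642805-127642834, plus strand): ggattagagtaaAGGTCAgcctccctccag
Stat5a, first start (chr11:100859598-100859627, plus strand): tgtgacccttctAGGTCActggatggactc
Stat5a, second start (chr11:100860428-100860457, plus strand): atcggaggcagcTGACCTttgaggaggaaa
Stat5b, second start (chr11:100822588-100822617, minus strand): gtctgaagcagcTGACCTtttagaaggaaa
Counted from the start site, the first base of the match lay at -69 in Stat4, -169 in Stat6, -46 and -44 in the Stat5a promoters and -35 in Stat5b. The windows of Stat5a and Stat5b at their second starts lie in a stretch of 55 bases of which 49 (89.09%) are identical between the paralogs, and the Stat5a window overlaps an annotated Stat5a exon. The letters TTCNNNGAA, the element bound by STAT dimers, matched in 0 of the 12 promoters, against 8.298% of all promoters. These matches are descriptions of letters in short windows and say nothing about binding.

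Between 52456804 and 74676721 reads per sample fell on genes, and the deposited values are those reads divided by a size factor for the sample, called normalized counts here. A value of 3 reads, the least taken as detectable, corresponded to 2.54 to 3.56 normalized counts, a limit that covers counting error only. The fewest reads of any member in a sample were 1391, for Stat4, so counting error was at most 2.68% of a value. The samples grouped by something other than the form of ROR-γt. Clustering over 16866 genes left out the members, the pathway genes and the cell type markers. It was cut into 3 sets, a number given to the clustering and not found by it. WT replicates 1 and 3 fell with K187R replicate 1 (set 1) and WT replicate 2 with K187R replicates 2 and 3 (set 2). WT replicate 4 fell with K187R replicate 4 (set 3). T cell markers (8 of 8 above the detection limit) summed to 178130 to 214284 normalized counts per sample. The 7 myeloid markers, which CD4+ T cells should lack, were also all detected and summed to 21987 to 39370 in set 1, 54521 to 68283 in set 2 and 69589 to 73623 in set 3. By group these sums were 21987 to 69589 in WT and 39370 to 73623 in K187R. Within set 1 they were 21987 and 22004 in WT replicates 1 and 3, and 39370 in K187R replicate 1. The 5 B cell markers summed to 998 to 1596 in set 1, 1220 to 1319 in set 2 and 301 to 357 in set 3. In set 1 the 1596 belonged to K187R replicate 1, and WT replicates 1 and 3 had 1009 and 998. Samples of the same set were thus not alike in these markers. Myeloid and B cells use JAKs and STATs too, and their part in the members' values was not tested. In such bulk samples fewer cells of a type and less RNA per cell cannot be told apart.

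For none of the 9 transcripts was a difference between the groups detected. Differences were tested with limma on log2(normalized count + 1) over 16982 genes with a mean of at least 10, and p-values were adjusted over all of them. Log2 fold changes are K187R minus WT throughout. Of the 9 members, 0 had an adjusted p under 0.05, beside a background of 0.0% of all genes tested, and 0 had an unadjusted p under 0.05, beside 4.39% of all genes (746). edgeR called 0 members and 0.0% of all genes (729 at an unadjusted p under 0.05). DESeq2 on the recovered reads called 0 members and 0.183% of all genes, and 1.02% with the replicate number as a block, again with 0 members. In that blocked DESeq2 fit Stat3 had an unadjusted p of 0.0473, the only member under 0.05, beside 1764 of the 16982 genes. In limma without WT replicate 4, 1 member was under an unadjusted 0.05, beside 2181 genes. The groups overlapped for all 9, and they failed to overlap for only 2.46% of all genes, so overlap does not set the 9 apart. The estimates were higher in K187R for 4 members and lower for 5, with a median log2 fold change of -0.015, beside -0.0062 over all genes tested. The 95% limits of the 9 differences ran from 0.722-fold, the lower limit of Stat4, to 1.49-fold, the upper limit of Jak3. They hold for each gene alone, in a fit without the sets, and were not adjusted for the number of genes. A difference within a gene's own limits could go undetected in this fit.

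**Figure D1:**
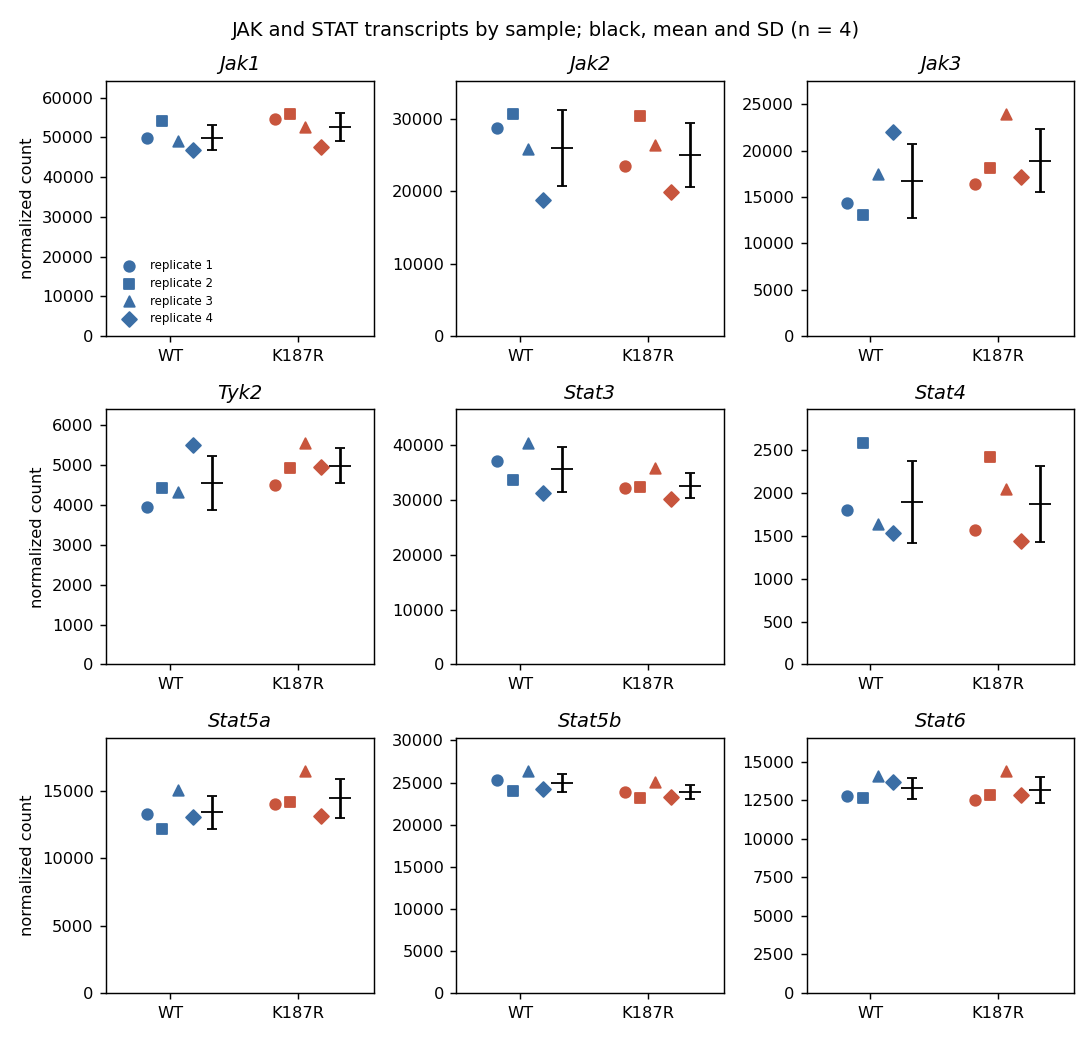
Normalized count of each JAK and STAT gene in every sample. Blue points are WT and red points K187R samples, the marker shape gives the replicate number, and the black bar is the mean and SD of the 4 samples; the groups overlap for all 9 genes.

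Jak1, the kinase carried by gp130, by γ-chain receptors and by interferon receptors, was the steadiest of the kinases. It had 49739, 54195, 49075 and 46742 normalized counts in WT and 54501, 55798, 52575 and 47653 in K187R. The K187R sample was the higher in each of the 4 same-numbered pairs, but the groups overlapped and differed by less than their spread. The labels do not say what the numbers share, so pairs here and below are descriptions and not a paired design. How many of all genes keep the same direction in every pair was not counted. On the log2 scale K187R minus WT came to 0.075 ± 0.0786 (SE), with 95% limits of -0.10 to 0.25 (limma adjusted p = 0.924, exact permutation p = 0.343). Jak1 lies on the minus strand at chr4:101152367-101265282.

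Jak2, the kinase of the IL-12 and IL-23 receptors and of the IFN-γ receptor, differed more between sets of samples than between groups. It had 28692, 30634, 25854 and 18769 normalized counts in WT and 23444, 30385, 26413 and 19886 in K187R. The lowest sample of each group was replicate 4, and these 2 samples of set 3 lay below all 6 others. The estimate from limma was -0.047 ± 0.171 (SE) on the log2 scale (95% limits -0.43 to 0.34, adjusted p = 0.977), and permutation of the samples gave an exact p of 0.829. Its direction turned when WT replicate 1, WT replicate 2 or K187R replicate 4 was left out, to 0.0084, 0.040 and 0.058. Jak2 lies on the plus strand at chr19:29251828-29313080.

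Jak3, which binds the γ chain shared by the receptors of IL-2, IL-4, IL-7, IL-9, IL-15 and IL-21, varied the most of the 9 relative to its lowest value, by 1.83-fold. It had 14327, 13083, 17480 and 22000 normalized counts in WT and 16385, 18104, 23906 and 17167 in K187R. K187R was the higher in pairs 1 to 3 and the lower in pair 4, where WT replicate 4 was the highest sample of its group. In limma the difference was 0.19 ± 0.173 (SE) on the log2 scale, with 95% limits of -0.20 to 0.58 and an adjusted p of 0.922, and the exact permutation p was 0.400. Within sets the difference was 0.050, 0.67 and -0.36 in sets 1, 2 and 3. Without WT replicate 4 the estimate was 0.33, the highest over the alternatives run, with an adjusted p of 0.393 in limma, and without K187R replicate 3 it was 0.070, the lowest. Of its exonic bases, which lie on the plus strand at chr8:71676296-71690575, 404 (7.55%) are also exonic in Insl3 on the same strand.

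Tyk2, the partner of JAK2 at the IL-12 and IL-23 receptors and of JAK1 at the type I interferon receptor, varied by 1.41-fold over the samples. It had 3941, 4429, 4315 and 5507 normalized counts in WT and 4501, 4934, 5559 and 4948 in K187R. As for Jak3, WT replicate 4 was the highest of its group, and pair 4 went the other way from pairs 1 to 3. On the log2 scale K187R minus WT came to 0.14 ± 0.110 (SE), with 95% limits of -0.11 to 0.39 (limma adjusted p = 0.921, exact permutation p = 0.229). Without WT replicate 1 it was 0.074, and without WT replicate 4 it was 0.24 with an adjusted p of 0.355 from limma, the lowest of any member under the alternatives run, and over all alternatives the adjusted p of Tyk2 ran from 0.355 to 0.9999. Tyk2 lies on the minus strand at chr9:21104068-21131243, and 554 of its exonic bases (8.07%) are shared with the antisense gene 1700084C06Rik. Whether counting used the strand is not stated, so reads there cannot be assigned with certainty.

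**Figure D2:**
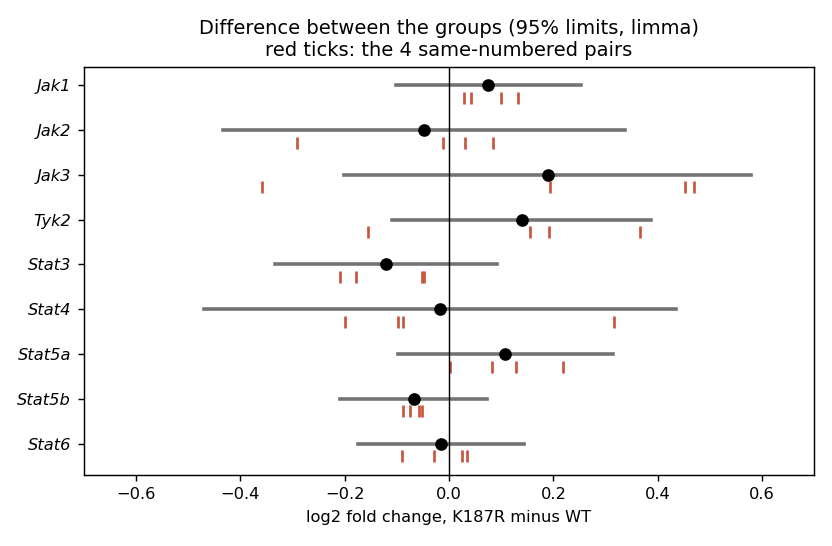
Log2 fold change, K187R minus WT, of the 9 genes from limma (black points) with 95% limits (grey lines). Red ticks are the differences of the 4 same-numbered pairs, which the labels do not say are matched. The limits include 0 for every gene, and the estimates lie between -0.12 for Stat3 and 0.19 for Jak3.

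Stat3, the factor that IL-6, IL-21 and IL-23 activate in Th17 cells, varied by 1.34-fold between its lowest and highest sample. It had 37064, 33616, 40417 and 31166 normalized counts in WT and 32087, 32428, 35731 and 30147 in K187R. K187R was the lower in each of the 4 pairs, but WT replicates 2 and 4 lay within the K187R range. The estimate from limma was -0.12 ± 0.0947 (SE) on the log2 scale (95% limits -0.33 to 0.091, adjusted p = 0.921), and permutation of the samples gave an exact p of 0.257. Stat3 lies on the minus strand at chr11:100885098-100939540, and 72 of its exonic bases overlap Stat5a on the opposite strand.

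Stat4, which IL-12 activates in Th1 cells, varied by 1.79-fold over the samples. It had 1804, 2583, 1642 and 1534 normalized counts in WT and 1571, 2413, 2045 and 1442 in K187R. The 3 samples of set 2 were the highest, at 2045 to 2583, and the other sets reached 1571 to 1804 and 1442 to 1534. In limma the difference was -0.017 ± 0.201 (SE) on the log2 scale, with 95% limits of -0.47 to 0.43 and an adjusted p of 0.993, and the exact permutation p was 0.943. Its sign turned without WT replicate 2 (0.14), K187R replicate 1 (0.055) or K187R replicate 4 (0.097), and with quantile normalization (0.0051). Within sets the mean difference was -0.15, with an exact within-set permutation p of 0.111, the lowest of the 9 members, where 18 regroupings allow no less than 0.0556. Stat4 lies on the plus strand at chr1:51987148-52107189. Gm28177 shares 1033 of its exonic bases (26.7%) on the same strand. Of the 75-base windows of the Stat4 transcript, 25.9% occur in Gm28177 as well, taking each read without its mate. The value of Stat4 is therefore uncertain, by an amount that was not measured.

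Stat5a and Stat5b are neighbours on chromosome 11 that encode the closely related STAT5 factors of IL-2 and IL-7 signalling. Stat5a had 13249, 12196, 15054 and 13094 normalized counts in WT and 14035, 14181, 16459 and 13109 in K187R. The K187R sample was the higher in all 4 pairs, by only 0.0016 on the log2 scale in pair 4. On the log2 scale K187R minus WT for Stat5a came to 0.11 ± 0.0917 (SE), with 95% limits of -0.098 to 0.31 (limma adjusted p = 0.921, exact permutation p = 0.314). Stat5b had 25337, 24020, 26344 and 24236 normalized counts in WT and 23832, 23181, 25007 and 23294 in K187R. It went the other way, lower in K187R in all 4 pairs, and was the steadiest of the members, its highest sample being 1.14 times its lowest. The estimate for Stat5b was -0.068 ± 0.0627 (SE) on the log2 scale (95% limits -0.21 to 0.073, limma adjusted p = 0.922), and permutation of the samples gave an exact p of 0.143. Stat5b was also the only member whose difference exceeded its pooled SD on the log2 scale (0.0561), and its groups still overlapped.

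Reads cannot always be assigned between the paralogs. Stat5a (chr11:100859351-100885169, plus strand) and Stat5b (chr11:100780731-100850724, minus strand) share 387 windows of 75 bases, the read length, which is 10.15% of those of the Stat5a transcript and 7.53% of those of Stat5b. The longest identical run, 324 bases within both coding sequences, begins with the following 75 bases, shown because a read from them fits both genes equally well.
Stat5a, transcript positions 904 to 978, and Stat5b, 1058 to 1132: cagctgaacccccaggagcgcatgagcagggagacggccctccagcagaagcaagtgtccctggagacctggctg
The reads were paired, and these windows take each read without its mate, which may lie outside the shared bases. The sources used here do not say how reads fitting more than 1 gene were counted.

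Stat6, the factor of IL-4 signalling in Th2 cells, hardly varied. It had 12767, 12623, 14050 and 13661 normalized counts in WT and 12520, 12835, 14385 and 12829 in K187R. Replicate 3 was the highest of each group, and the 2 ranges nearly coincided. In limma the difference was -0.015 ± 0.0706 (SE) on the log2 scale, with 95% limits of -0.17 to 0.14 and an adjusted p of 0.982, and the exact permutation p was 0.886. Stat6 lies on the plus strand at chr10:127642986-127660957.

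The members differed widely in how steady they were. Their pooled SD within groups, on the log2 scale, ran from 0.0561 for Stat5b to 0.34 for Stat4, with a median of 0.136. The median was 0.220 over all genes tested and 0.140 over the 6194 genes at least as high as the lowest member. These 6194 genes were not matched to the level of each member. Jak2, Jak3 and Stat4 varied most, and Jak2 and Stat4 differed more between the sets than between the groups. The sets were drawn from these same samples, and how many of all genes differ between them in this way was not counted. Jak2 reached 23444 to 28692 in set 1 and 26413 to 30634 in set 2, against 18769 to 19886 in set 3. Stat4 was instead highest in set 2. Set 3 had the lowest B cell and the highest myeloid marker sums, but single myeloid markers differed. Lyz2 was highest in set 3, at 54522 and 57778 normalized counts. Csf1r (2598 and 2423) and S100a8 (7791 and 8874) were lower there than in every sample of set 2. Cd8a was also highest in set 3, at 567 and 635. Whether any of these bear on Jak2 was not tested. The genes whose centred log2 values over the 8 samples lay nearest to those of Jak3 were Plekhn1, Nckap5l and Dennd4b, with root mean square differences of 0.0583, 0.0626 and 0.0681. The nearest to Stat4 were Dcun1d4, Plcb4 and Rnf19a, at 0.0713, 0.0809 and 0.0842.

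**Figure D3:**
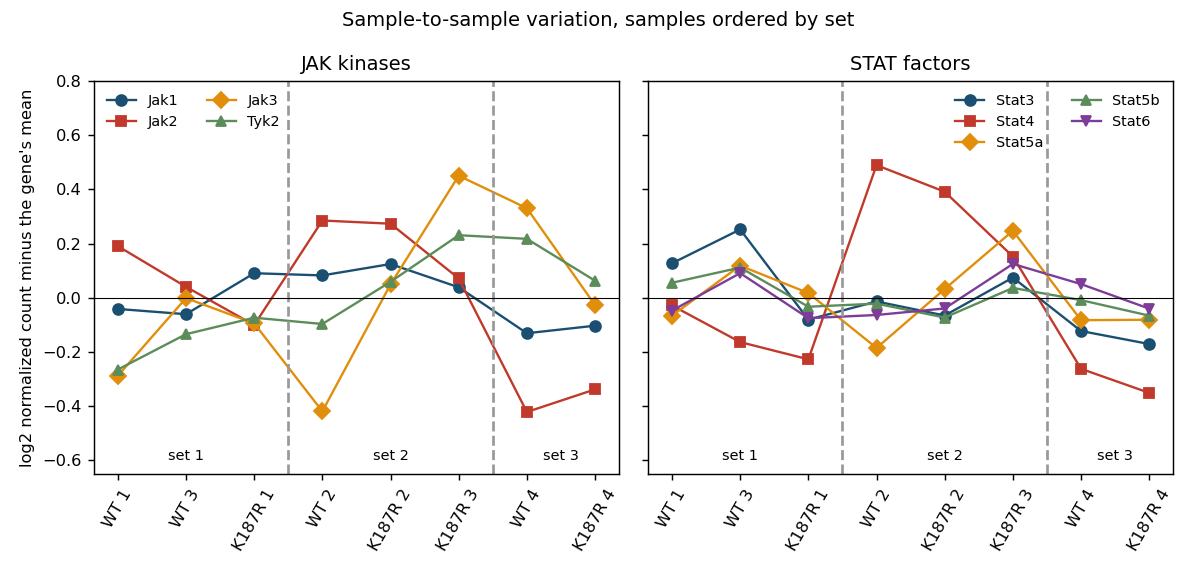
Log2 normalized count of each gene minus its mean over the 8 samples, with JAK kinases on the left, STAT factors on the right and the samples ordered by set (dashed lines). Jak2 is lowest in both samples of set 3 and Stat4 is highest in the 3 samples of set 2, while Stat5b and Stat6 stay close to 0 throughout.

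To compare genes with each other, the normalized count was divided by the gene's exonic length. Per kilobase of all annotated exons together, Jak1 had the highest level (6910 ± 431 in WT and 7283 ± 494 in K187R, SD, n = 4). Next came Jak2, Stat5b, Stat3, Jak3 and Stat6, with means over the 8 samples of 5072, 4406, 3577, 3327 and 3001 normalized counts per kilobase. From Jak2 to Stat6, each of these genes overlapped the next of them in its range over the samples. Stat5a followed at 1952, and Tyk2 and Stat4 were lowest, at 694 and 485, overlapping each other. Jak1 over Jak2, Stat6 over Stat5a and Stat5a over Tyk2 were the only neighbours in this order whose ranges did not overlap. The order depended on the length used. With the longest annotated transcript as the length Stat3 came second at 5641, and 4 of the 9 genes kept their rank, while Jak1 stayed first and Tyk2 and Stat4 stayed last.

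**Figure D4:**
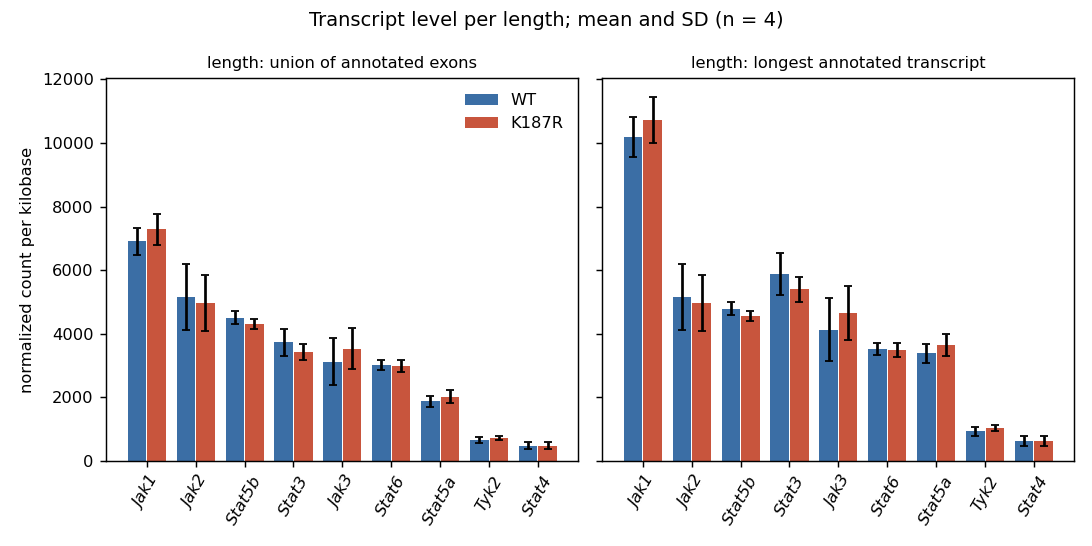
Normalized count per kilobase of each gene in WT (blue) and K187R (red), as mean and SD of 4 samples, with the length taken as all annotated exons together (left) or the longest annotated transcript (right). Jak1 is highest and Tyk2 and Stat4 are lowest with either length, while Stat3 and Stat5a stand higher with the longest transcript.

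The balance among the kinases was similar in both groups on this scale of level per kilobase of all exons. Jak1 made up 43.5% ± 0.995 of the 4 JAK levels in WT and 44.3% ± 2.83 in K187R (SD, n = 4). Jak2 made up 32.4% ± 5.46 and 30.0% ± 2.74, Jak3 19.8% ± 5.49 and 21.4% ± 2.88, and Tyk2 4.19% ± 0.757 and 4.42% ± 0.439. All 4 shares overlapped between the groups. Among the STAT5 genes, the share of Stat5b was 71.1%, 71.7%, 69.3% and 70.4% in WT replicates 1 to 4 and 68.6%, 67.8%, 66.2% and 69.6% in K187R. WT replicate 3 lay below K187R replicate 4, so the groups overlapped. The ratio of the Stat3 level to the Stat5a and Stat5b levels together was 0.605, 0.584, 0.618 and 0.527 in WT and 0.537, 0.551, 0.550 and 0.524 in K187R. The first 3 WT samples were above every K187R sample, and WT replicate 4 lay within the K187R range. With the longest transcript as the length this ratio was 0.719 ± 0.0488 in WT and 0.656 ± 0.0114 in K187R (SD, n = 4), again overlapping. These balances are descriptions and were not tested.

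Around the members, 84 genes of the pathway were listed, of which 79 were tested. In limma 0 of the 79 passed the adjusted threshold, and 7 were higher and 3 lower in K187R at an unadjusted p under 0.05, beside 4.39% of all genes in either direction. edgeR called 0 of them and DESeq2 called 2, beside 0.183% of all genes. With the replicate number as a block DESeq2 called 6 of them, Il23r, Ifngr1, Lif, Ptpn6, Il18r1 and Fosl2, beside 1.02% of all genes. The groups did not overlap for 5 of them, beside 2.46% of all genes. The lists were chosen with earlier results of these data known, so these counts are descriptions.

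Of 22 receptor chains that signal through JAKs, 21 were tested, with a median log2 fold change of 0.10 and 12 estimates higher and 9 lower in K187R. At an unadjusted p under 0.05, Il6ra, Il23r, Il10ra and Il27ra were higher and Ifngr1 was lower. Il6ra, the IL-6 binding chain, had 7553, 8266, 7467 and 7511 normalized counts in WT and 9349, 10203, 10819 and 7891 in K187R, higher in all 4 pairs and overlapping only through WT replicate 2 and K187R replicate 4. Its log2 fold change was 0.30 ± 0.0993 (SE, limma adjusted p = 0.921, exact permutation p = 0.0571). Il6st, which encodes gp130, its signalling partner, had a log2 fold change of 0.19 ± 0.112 (SE, limma adjusted p = 0.921). Il2ra, the high-affinity IL-2 receptor chain upstream of STAT5, ranged from 68677 to 132086 normalized counts, with a log2 fold change of -0.35 ± 0.214 (SE, limma adjusted p = 0.921).

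Ifngr1, the IFN-γ binding chain, is named after its values were seen. It had 21740, 20440, 21301 and 16392 normalized counts in WT and 13343, 12721, 12902 and 13161 in K187R. Every K187R sample was below every WT sample. The log2 fold change was -0.61 (standard error 0.0927), with an adjusted p of 0.344 from limma, 0.402 from edgeR and 4.27e-06 from DESeq2, and it passed the threshold in limma when WT replicate 4 was left out. The exact permutation p was 0.0286, the smallest that 4 samples against 4 allow.

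Of 20 cytokines that act through these receptors, 16 were tested, with 14 estimates higher and 2 lower in K187R, a median of 0.18 and 0 past an unadjusted p of 0.05 in either direction in limma. DESeq2 called 0 of them, and 1 (Lif) with the block. The median over all genes tested was -0.0062, and the share of all genes with a higher estimate was not counted. Some of these cytokines were low, such as Il9, with means of 19.4 normalized counts in WT and 26.3 in K187R. Others varied widely, such as Il12b, with 170 ± 292 in WT and 465 ± 483 in K187R (SD). The direction of such estimates is uncertain. A part played by myeloid cells in these values was not tested.

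All 20 inhibitors, PIAS SUMO ligases, phosphatases and adaptors were tested, with 8 estimates higher and 12 lower and a median of -0.069. Ptpn1 and Ptpn6, phosphatases that act on JAKs, were higher and Socs7 was lower in K187R at an unadjusted p under 0.05. Socs3, the STAT3-induced inhibitor of gp130 signalling, had 18644 ± 1761 normalized counts in WT and 22226 ± 3533 in K187R (SD, n = 4), a log2 fold change of 0.24 (adjusted p = 0.921 from limma). Cish, an inhibitor induced by STAT5, had 10240 ± 3623 in WT and 7556 ± 876 in K187R (SD, n = 4), a log2 fold change of -0.37 (adjusted p = 0.921 from limma). The groups overlapped for both genes. Pias1, a SUMO ligase that inhibits STAT signalling, had a log2 fold change of 0.0060 and Ptpn2, another JAK and STAT phosphatase, one of -0.13 (adjusted p = 0.993 and 0.921 from limma).

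All 22 genes known as STAT targets or partners in T helper cells were tested, with 12 estimates higher and 10 lower and a median of 0.0051. Bcl2, a survival gene, and Pim1, a kinase gene, both induced through STATs, had log2 fold changes of -0.27 and -0.012. Tbx21 and Gata3, which encode the lineage factors of Th1 and Th2 cells, had log2 fold changes of 0.0056 and 0.24. None of these 4 had an adjusted p under 0.05 in limma. Il18r1 was higher and Fosl2 lower in K187R at an unadjusted p under 0.05, and the groups did not overlap for either. Fosl2, an AP-1 factor that limits Th17 genes and is also named after its values were seen, had 11780, 9162, 12583 and 8907 normalized counts in WT and 7398, 7089, 7646 and 7526 in K187R. The WT samples were all above the K187R samples, and the 2 of set 1 were the highest. Its log2 fold change was -0.50 (standard error 0.115), with an adjusted p of 0.921 from limma and 0.0263 from DESeq2.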

How the data were processed

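The authors prepared libraries from RNA, with poly-A enrichment according to the methods, and trimmed the 75-base paired-end reads. They aligned them with HISAT2 to GRCm38, obtained gene counts with featureCounts and tested differences with DESeq2. The labels and the methods name different library kits. Each deposited value is a signal, a gene's reads over the sample's size factor. All values (100%) were whole reads within 0.01 of a read, so reads were recovered for the alternatives.

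Groups and replicate numbers came from the labels. limma 3.58.1 (lmFit, eBayes with trend, R 4.3.3) was run on log2(normalized count + 1), which understates changes of low genes, for the 16982 genes whose mean reached 10. p-values were adjusted by the Benjamini-Hochberg method with a threshold of 0.05. edgeR 4.0.16 and DESeq2 1.42.0 were alternatives on the reads. For single genes, exact two-sided permutation tests shuffled the 8 samples, the signs of the 4 pairs or the samples within sets, with Python 3.11.15, numpy 2.4.6, scipy 1.17.1 and pandas 2.3.3. Figures were drawn with matplotlib 3.10.9. Other alternatives changed the pseudocount to 0.5 or 5, the filter to a mean of 50 or to none, the scaling to quantile normalization or median centring, and eBayes to no trend, added the replicate number or the sample set as a factor, or left out each sample in turn. The fits were run on simulated reads with the same dispersion for all genes, no sample sets and larger changes than those of the members. That run checked the code and does not show how the fits perform on these data. Coordinates and lengths are those of GENCODE M21 on GRCm38, in which 22784 of the listed identifiers were found and 45 were not. The authors counted reads on an earlier GENCODE release, so the lengths may differ from the exons that were counted.

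The members, gene lists and tests were chosen with earlier results of these data known. Named were all members, 11 genes of the pathway lists, any listed gene past the threshold in limma, and for the 2 members with the largest SD the 3 genes nearest in profile. Ifngr1 and Fosl2 were added because DESeq2 called them, and genes with an unadjusted p under 0.05 are listed by name. Some results are not reported here.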

Additional observations from a re-analysis of the deposited data

Results flagged for a closer look

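Over 21 genes, the highest or lowest sample of each group of 4 was compared with the others on the log2 scale. A sample was singled out where its gap to the nearest other passed Dixon's 95% critical share of the group's range, 0.829. This met 4 of 42 groups, where chance gives about 2.1 (about 1 in 20 groups), and none of them belonged to a JAK or STAT gene. Il6st, the gene of gp130, was low in replicate 4 of both groups, at 14996 normalized counts in WT and 16124 in K187R, the 2 samples of set 3. Ptpn2 was low in WT replicate 4, at 4188 normalized counts, and passed only narrowly, at 0.837 on the log2 scale. Il6ra was high in WT replicate 2, at 8266 normalized counts.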

How the results depend on the processing

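The number of JAK and STAT genes past the threshold was 0 under every alternative run. Each member's log2 fold change was recomputed under 22 alternatives, 198 values in all, of which 189 kept their direction and 9 reversed. The reversals were Stat4 with quantile normalization (0.0051) and, with a sample left out, Jak2 (range -0.20 to 0.058), Stat4 (-0.15 to 0.14) and Stat6 (-0.059 to 0.013). The cause was not tested. The other 6 members kept their direction, but leaving out a sample moved each by over 1.5 times: Jak1 from 0.044 (without WT replicate 4) to 0.12 (K187R replicate 4), Jak3 from 0.070 (K187R replicate 3) to 0.33 (WT replicate 4), Tyk2 from 0.074 (WT replicate 1) to 0.24 (WT replicate 4), Stat3 from -0.18 (WT replicate 4) to -0.058 (WT replicate 3), Stat5a from 0.043 (K187R replicate 3) to 0.17 (WT replicate 3) and Stat5b from -0.091 (K187R replicate 3) to -0.042 (WT replicate 3). Over all genes, the count past the threshold was 0 in limma and edgeR, 1 with the sample set in limma, 0 to 4 with a sample left out (4 without WT replicate 4), 31 in DESeq2, 144 in DESeq2 with the sample set and 174 in DESeq2 with the replicate block. Of the listed pathway genes, 0 to 1 passed with a sample left out (Ifngr1 without WT replicate 4), 2 in DESeq2, and 6 in DESeq2 with either the set or the replicate block. With the longest transcript as the length, 4 of the 9 genes kept their rank per kilobase.

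The labels give both groups the numbers 1 to 4 without saying what they share. Deviations from the group means correlated at 0.59, 0.66, -0.092 and 0.63 for the 4 numbers, and WT replicate 3 correlated better with K187R replicate 1 than with its own number, so the numbers were not taken as pairs. With the replicate block limma called 0 genes (2046 at an unadjusted p under 0.05), and the lowest adjusted p of a member was 0.436. Sign flips of 4 pairs cannot give a p under 0.125 and show nothing at the threshold.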
